A study of Mus musculus with 24 samples.

Results

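Cytosolic ribosomal protein transcripts had higher mean levels in hearts labelled as lacking Sirt5 in cardiomyocytes than in control hearts. After transverse aortic constriction (TAC) the difference was called for 53 of 80 genes, beside 4.97% of all genes called higher. When 2 libraries whose Sirt5 level goes against their label were left out, 3 were called, beside 1.27% of all genes. With all libraries and a covariate for the series of animal numbers, 13 were called after TAC. The share of all genes in that fit is not given. After Sham surgery 4 were called, beside 2.23% of all genes, and 0 with a covariate for the series of animal numbers. The 80 genes were chosen by name, as every row called Rpl or Rps with a number, or Rplp0, Rplp1, Rplp2 or Rpsa, whose mean normalized count over all hearts was at least 100. They are 80 of 24239 genes in the table, and 88 genes carried such a name. The level cut used the mean of all hearts and no contrast between groups. Rpl13a, with a mean of 102, lay just inside it, and Rps3a3, Rps3a2 and Rps10, with means of 49.2, 40.3 and 39.1, lay just outside. The other 5 names below the cut had means of 1.63 to 12.9. Rps10, Rpl24 (mean 6.58) and Rpl32l share 53.6%, 71.5% and 100% of their canonical exons with an overlapping gene model, so their counts are uncertain. Of the 80 genes, 48 encode proteins of the large and 32 of the small subunit, and 75 are the canonical gene of their protein. The remaining 5 are the paralogs Rpl3l, Rpl7l1, Rpl22l1, Rps27l and Rps4l.

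RNA was sequenced from 24 whole hearts of male C57BL6J mice taken 12 weeks after surgery, with 6 hearts in each of 4 groups. The groups were cSirt5-/- hearts after TAC, which narrows the aorta and loads the left ventricle with pressure, cSirt5-/- hearts after Sham surgery, control hearts after TAC and control hearts after Sham surgery. In cSirt5-/- mice both floxed Sirt5 alleles are cut by a Cre driven by the Myh6 promoter, which is active in cardiomyocytes, while controls express no Cre. Cre and the loss of Sirt5 therefore go together and cannot be told apart, and Sirt5 in other cell types of the heart is left intact. Each library is 1 animal, so the p-values measure the spread between animals.

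The cytosolic ribosome is built from 4 ribosomal RNAs and a set of proteins that are needed in nearly equal numbers. Most ribosomal protein mRNAs begin with a run of pyrimidines, the terminal oligopyrimidine (TOP) motif, through which mTORC1 and the RNA-binding protein LARP1 control their translation and stability. Cardiomyocytes raise ribosome production during hypertrophic growth. Striated muscle also carries Rpl3l, a muscle-restricted paralog that takes the place of Rpl3 in part of its ribosomes.

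RefSeq start sites (assembly GRCm38.p6) were matched for 59 of the 80 genes. A run of at least 6 pyrimidines touching the 5 bases on either side of the start was found for 30 of them (50.8%), against 2002 of 8453 other protein-coding genes above the same level cut (23.7%). The 30 bases around the start are shown for genes that recur below, with 15 bases on each side, first for 4 with such a run (in capitals) and then for 3 without one.
Rpl22l1 (chr3:28805493-28805522): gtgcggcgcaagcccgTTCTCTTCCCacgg
Rps9 (chr7:3704026-3704055): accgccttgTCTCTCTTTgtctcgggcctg
Rplp2 (chr7:141447636-141447665): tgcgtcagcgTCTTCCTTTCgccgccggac
Rpl38 (chr11:114668565-114668594): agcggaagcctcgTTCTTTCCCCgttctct
Rplp0 (chr5:115559452-115559481): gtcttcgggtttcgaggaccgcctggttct
Rpl3l (chr17:24727811-24727840): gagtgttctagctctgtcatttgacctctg
Rpl36a (chrX:134585639-134585668): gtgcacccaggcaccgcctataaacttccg
All 7 are on the plus strand. The annotated start can differ from the one used in the heart, so an absent run says only that these letters are not in this window. The median log2 fold change of cSirt5-/- over control hearts was 0.45 for genes with a run and 0.45 for genes without one after TAC, and 0.31 for both kinds after Sham. Without the 2 libraries whose Sirt5 goes against the label, it was 0.27 for both kinds after TAC.

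Each library held 22.5 to 35.8 M counted reads, of which 11.2 to 28.4% came from mitochondrial genes. Ribosomal RNA and 7SK took 23.4% of the reads in control TAC replicate 2 and at most 4.19% in the other libraries. The libraries fell into 2 sets by the log2 ratio of antisense to sense reads over 190 gene pairs, with 10 libraries at −8.41 to −8.00 (set 1) and 14 at −11.08 to −9.82 (set 2). Set 1 held 2 cSirt5-/- TAC, 4 cSirt5-/- Sham, 2 control TAC and 2 control Sham libraries. Genotype and set therefore overlap in part after Sham. After TAC each genotype had 2 libraries in set 1 and 4 in set 2. The animals' numbers fell into 3 series that were spread unevenly over the groups. Series 1, 2 and 3 gave 2, 4 and 0 cSirt5-/- TAC hearts, 0, 2 and 4 cSirt5-/- Sham hearts, 4, 0 and 2 control TAC hearts, and 4, 2 and 0 control Sham hearts. Genotype and series therefore overlap in part as well. After TAC only series 1 held hearts of both genotypes, and its cSirt5-/- TAC hearts were replicates 1 and 2. After Sham only series 2 held hearts of both genotypes. Sirt5 checked the labels. It had normalized counts of 85.6 to 259 in 10 of the 12 cSirt5-/- libraries, against 388 to 807 in the controls. The libraries labelled cSirt5-/- TAC replicate 2 and cSirt5-/- TAC replicate 4 had 886 and 499, which goes against their label. They are called the doubtful libraries here, and most counts, medians, named genes and gene lists of cSirt5-/- TAC hearts are given with and without them. Single genes in the interaction of genotype and TAC are given with them only.

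The 80 genes took a mean of 1.298% ± 0.24 of counted reads in cSirt5-/- TAC hearts, 1.19% ± 0.16 in cSirt5-/- Sham hearts, 0.924% ± 0.16 in control TAC hearts and 0.934% ± 0.11 in control Sham hearts (SD, n = 6 each). The mean of the cSirt5-/- TAC hearts was 1.18% without both doubtful libraries. In whole tissue, a change in the number of cells of a type and a change in RNA per cell cannot be told apart. The mean log2 level of the 80 genes followed the same grouping. It was 11.40, 11.72, 11.72, 12.49, 11.52 and 11.63 in the cSirt5-/- TAC hearts, and 11.68, 11.54, 11.54, 11.52, 12.02 and 11.93 in the cSirt5-/- Sham hearts. In control hearts it was 11.41, 11.17, 11.43, 11.34, 11.32 and 11.25 after TAC, and 11.39, 11.63, 11.45, 11.34, 11.21 and 11.38 after Sham. The library labelled cSirt5-/- TAC replicate 4 was the highest of all 24 for 75 of the 80 genes, and control TAC replicate 2, the library rich in ribosomal RNA, was the lowest for 32. Among the other cSirt5-/- TAC hearts, replicate 1 lay within the control range and the remaining ones lay above every control TAC heart. Large-subunit and small-subunit genes moved alike, with mean log2 levels of 11.61 and 11.96 in cSirt5-/- TAC hearts against 11.17 and 11.53 in control TAC hearts.

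**Figure D1:**
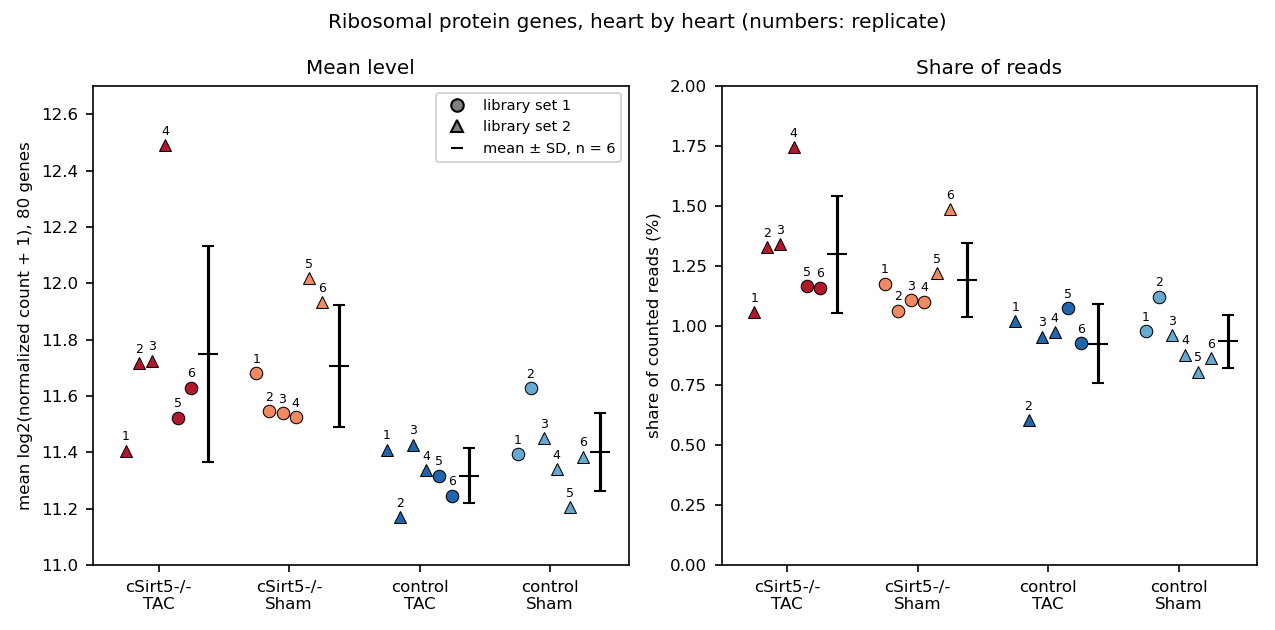
Mean log2(normalized count + 1) of the 80 ribosomal protein genes (left) and their share of counted reads in percent (right) in each of 24 hearts. Points are hearts numbered by replicate, circles are library set 1 and triangles set 2, and bars are mean ± SD of 6 hearts. The library labelled cSirt5-/- TAC replicate 4 stands at 12.49, and the lowest heart is control TAC replicate 2 at 11.17.

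The first comparison asked which of these transcripts differed between genotypes under pressure overload. After TAC, 53 of the 80 genes rose in cSirt5-/- hearts over control hearts and none fell, at an adjusted p under 0.1 (limma on log2(normalized count + 1), Benjamini-Hochberg over all genes), where 4.97% of all genes were called higher and 5.06% lower. The median log2 fold change of the 80 was 0.43 (1.35-fold), beside 0.00 over all genes, and the largest difference of a single gene was 0.80, with a median standard error of 0.14 over the genes. Called genes were spread over both subunits, with 32 of 48 large-subunit and 21 of 32 small-subunit genes. A rise over 1.5-fold was also met by 14 genes, where 1.93% of all genes met both limits in that direction. In 21 genes every cSirt5-/- TAC heart exceeded every control TAC heart, which held for 1.24% of all genes in that direction. Without the libraries labelled cSirt5-/- TAC replicates 2 and 4 the median was 0.27 and 3 genes were called, Rpl22l1, Rps9 and Rpl14, where 1.27% of all genes were called higher and 1.46% lower. Leaving out replicate 4 alone gave a median of 0.29 and 26 called genes. With animal series as a covariate 13 genes were called. Within library set 1 no gene was called among 4 hearts, and within set 2, with 8 hearts, 37 were called. The mean log2 level was higher by 0.29 in set 1 and by 0.50 in set 2. For the fits without replicate 4 alone, with series and by set, the share of all genes called is not given. Their counts therefore stand without that comparison. Both doubtful libraries are in set 2. Its other cSirt5-/- TAC hearts, replicates 1 and 3, had mean log2 levels of 11.405 and 11.725. Its control TAC hearts averaged 11.336.

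Rpl22l1 had the largest difference. This paralog of Rpl22 can replace it in the ribosome, and in mice it is raised when Rpl22 is lost. It had normalized counts of 579, 829, 989, 628, 484 and 639 in the cSirt5-/- TAC hearts, against 390, 302, 464, 415, 440 and 326 in the control TAC hearts. The groups did not overlap, and the log2 fold change was 0.80 (SE 0.14, adjusted p = 0.0010). It held without both libraries whose Sirt5 goes against the label, at 0.75 (adjusted p = 0.010). Unlike most of the 80 genes, it was highest in replicates 2 and 3, not in replicate 4. Rpl22 itself did not pass the test (0.13, adjusted p = 0.42).

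Genes of the small subunit that rose by over 1.5-fold were Rps9, Rps12, Rps20 and Rps29. Rps9, which binds the small-subunit ribosomal RNA, had 7629, 10917, 11074, 12603, 7610 and 7569 in cSirt5-/- TAC hearts, against 6770, 5962, 6176, 6097, 5899 and 5325 in control TAC hearts. All cSirt5-/- TAC hearts were above all control TAC hearts (log2 fold change 0.64, SE 0.13, adjusted p = 0.0064), and the call held without both doubtful libraries (0.47, adjusted p = 0.076). Rps12 rose by 0.69 on the log2 scale (adjusted p = 0.026) and Rps20 by 0.65 (adjusted p = 0.015), both without overlap of the groups. Neither was called without both doubtful libraries (0.46, adjusted p = 0.22, and 0.47, adjusted p = 0.15). Rps29, in which mutations cause Diamond-Blackfan anemia in humans, rose by 0.68 (adjusted p = 0.089) but its values spread widely. It had 955, 1554, 1926, 5068, 1618 and 2042 in cSirt5-/- TAC hearts and 1166, 806, 1398, 1248, 1278 and 1336 in control TAC hearts, so replicate 1 lay among the controls. Its call was lost without replicate 4 (0.40).

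Large-subunit genes over 1.5-fold were Rpl22l1, Rplp0, Rpl36a, Rpl41, Rpl39, Rpl37a, Rpl11, Rpl38, Rpl19 and Rpl26. Rpl36a, an X-linked gene, had 784, 1004 and 2356 as lowest, median and highest value in cSirt5-/- TAC hearts, against 520, 728 and 774 in control TAC hearts. Its groups did not overlap, with the lowest cSirt5-/- heart just above the highest control heart (log2 fold change 0.72, SE 0.18, adjusted p = 0.019). Rpl41, the shortest of the set with 138 coding bases, rose by 0.71 (adjusted p = 0.028), and Rpl39, whose protein lines the exit tunnel for the growing peptide, rose by 0.69 (adjusted p = 0.026). Rpl11, which can bind and inhibit MDM2 when ribosome assembly is disturbed, rose by 0.64 (adjusted p = 0.038). Rpl38, needed in mice for the translation of a group of Hox mRNAs, rose by 0.61 (adjusted p = 0.028). Of these 10 genes, Rpl22l1 alone was called without both libraries whose Sirt5 goes against the label, and Rplp0, Rpl37a and Rpl11 were also not called without replicate 4 alone.

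The 27 genes not called after TAC were all above 0 too, although Rpl17 was at −0.06 without both doubtful libraries. Among those with small differences were Rpl7l1 and Rpl17, both at 0.07 (adjusted p = 0.67 and 0.86). Rpl7l1, a paralog of Rpl7, was the steadiest of the set, with 1132 to 1547 in cSirt5-/- TAC hearts and 1132 to 1382 in control TAC hearts, while Rpl7 was called higher (0.32, adjusted p = 0.031, and 0.24, adjusted p = 0.21 without both doubtful libraries). The small-subunit paralog pair went the other way round, with Rps27l called (0.37, adjusted p = 0.018) and Rps27 not (0.23, adjusted p = 0.45). Rps27l was not called without both doubtful libraries (0.27, adjusted p = 0.15).

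**Figure D2:**
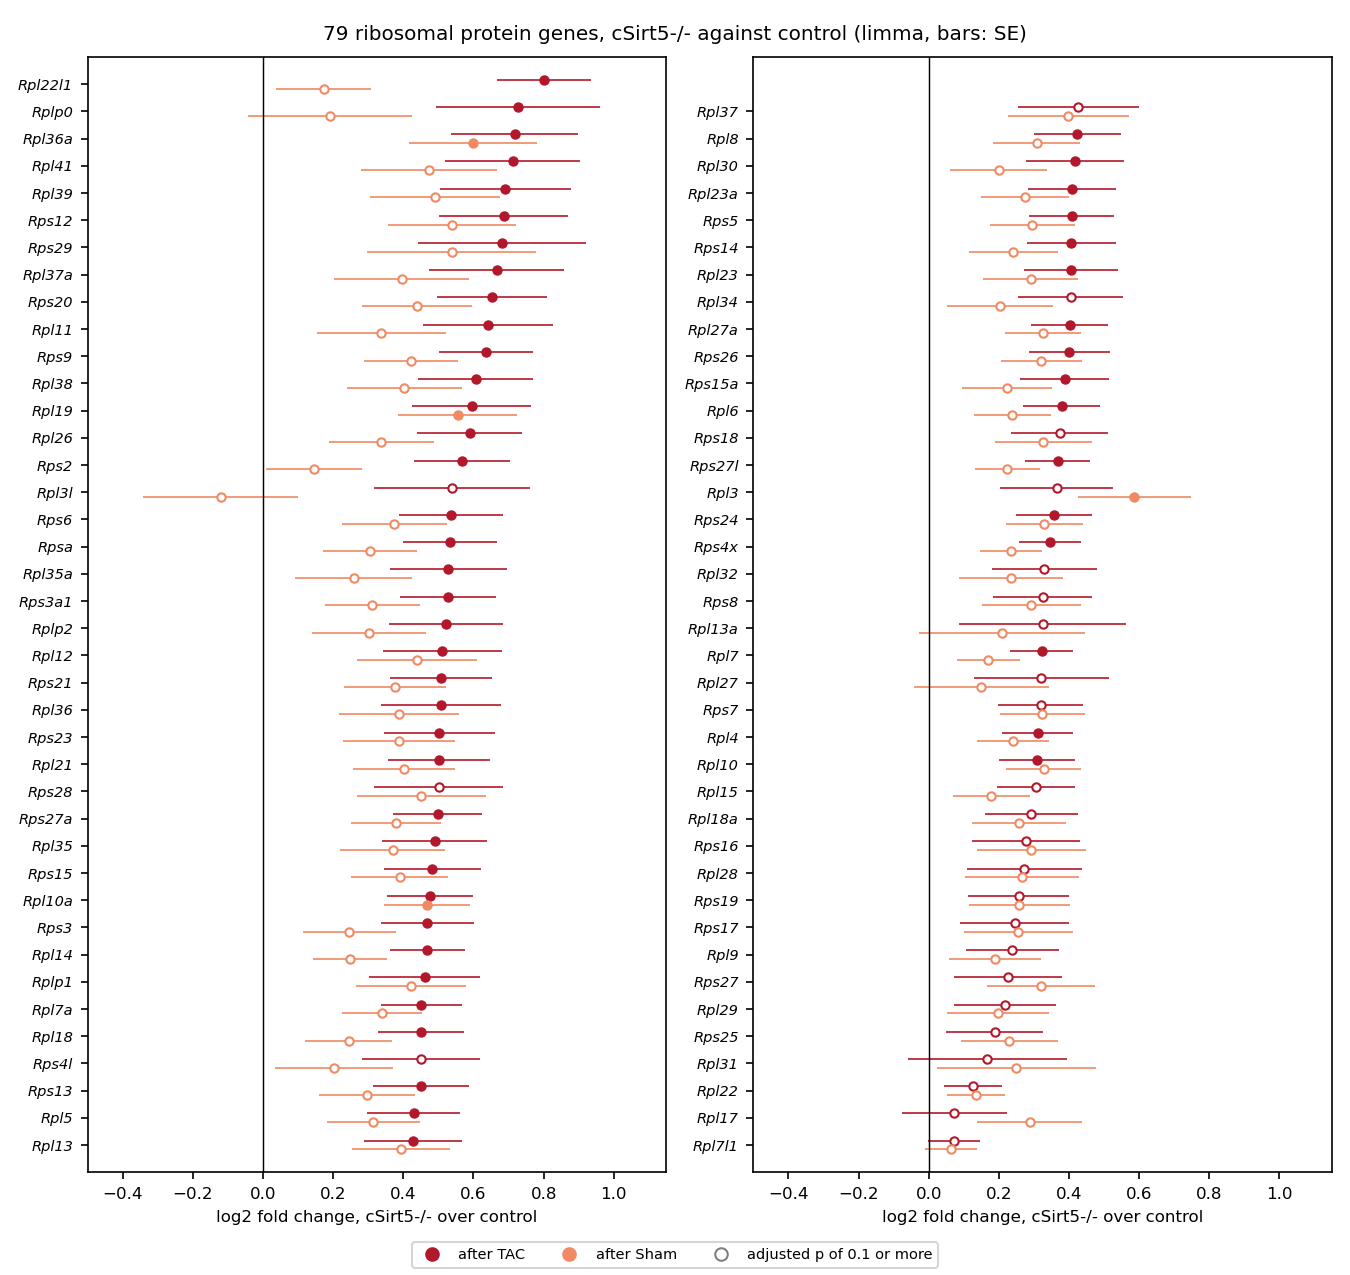
Log2 fold change of cSirt5-/- over control hearts for 79 of the 80 genes, after TAC (dark red) and after Sham (orange), with standard errors as bars and open points for an adjusted p of 0.1 or more. All points after TAC lie above 0, and Rpl3l is the one gene below 0 after Sham, at −0.12.

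The stalk of the large subunit recruits translation factors. Rplp0 anchors it, and Rplp1 and Rplp2 form the dimers that bind elongation factors. Rplp0 served as the reference transcript for PCR of mouse hearts in the study. It had normalized counts of 5646, 6296, 9519, 22447, 8774 and 5648 in cSirt5-/- TAC hearts, against 5101, 4920, 4775, 7307, 4925 and 4236 in control TAC hearts. Replicate 4 was more than any other heart, and the log2 fold change of 0.73 (SE 0.23, adjusted p = 0.062) became 0.45 without it (adjusted p = 0.17). After Sham, Rplp0 had 6034, 5279, 5934, 5778, 7370 and 7477 in cSirt5-/- hearts, against 4931, 9899, 5270, 5104, 4245 and 4882 in control hearts, and the difference was 0.19 (adjusted p = 0.74). Rplp1 and Rplp2 were called after TAC (0.46, adjusted p = 0.080, and 0.52, adjusted p = 0.053), and neither call held without replicate 4. Rpsa, a small-subunit protein that also occurs as the laminin receptor precursor, rose by 0.53 (adjusted p = 0.018) with no overlap of the groups, and was not called without both doubtful libraries (0.36, adjusted p = 0.11). Rps16, the reference transcript the study used for human hearts, did not pass (0.28, adjusted p = 0.33).

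The same comparison was made after Sham surgery. Rpl3, Rpl10a, Rpl19 and Rpl36a rose in cSirt5-/- hearts, 4 of 80 genes against 2.23% of all genes called higher, and none fell, against 1.55% called lower. The last 3 of these were called after TAC as well. The median log2 fold change was 0.30 (1.23-fold), and 79 of the 80 genes were above 0, ranging from −0.12 for Rpl3l to 0.60 for Rpl36a. At an unadjusted p under 0.05 there were 48 genes (60%), against 16.1% of all genes. With animal series as a covariate none of the 80 genes was called. With both doubtful libraries left out, 36 were, beside 3.47% of all genes called higher and 3.49% lower. Those libraries enter this comparison only through the spread. In 7 genes the groups did not overlap, against 1.14% of all genes: Rpl3, Rpl10, Rpl10a, Rpl19, Rpl36a, Rps12 and Rps23. The 2 library sets gave unlike values, a contrast that was not tested. Within set 1, 4 cSirt5-/- and 2 control hearts gave a difference of 0.06 in the mean log2 level and no called gene, and within set 2, 2 cSirt5-/- and 4 control hearts gave 0.63 and 39 called genes. The share of all genes called within each set is not given. The 2 cSirt5-/- hearts of set 2 are replicates 5 and 6, at 12.02 and 11.93.

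Rpl10a was the most firmly called of the 4 after Sham. Its protein sits at the L1 stalk, which helps the used tRNA leave the ribosome. It had 2405, 2356, 2290, 2490, 3014 and 2969 in cSirt5-/- Sham hearts, against 1981, 2254, 1834, 1698, 1546 and 1924 in control Sham hearts. Every cSirt5-/- heart was above every control heart (log2 fold change 0.47, SE 0.12, adjusted p = 0.050). Rpl19 rose by 0.55 (adjusted p = 0.085) and Rpl36a by 0.60 (adjusted p = 0.085). None of the 80 genes was called when a single library was left out, if it was control Sham replicate 4 or 5. The same held for cSirt5-/- Sham replicate 5 or 6, the hearts with the highest mean levels of their group. Without control Sham replicate 2 there were 10. The share of all genes called is not given for these fits.

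The effect of TAC itself was asked within each genotype. In control hearts 3 of 80 genes were called between TAC and Sham, against 13.9% of all genes, and the median log2 fold change of the 80 was −0.07. Rpl3 rose, and Rpl3l and Rpl22l1 fell. The other 77 genes did not pass and ranged from −0.41 for Rps29 to 0.17 for Rpl13a. Among them Rpl10, the gene with the next highest value, had 0.12. At an unadjusted p under 0.05 there were 4 (5%), against 21.5% of all genes.

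Rpl3 and Rpl3l encode the same subunit position and differ little in coding length (1209 and 1221 bases), so their counts can be set side by side. Rpl3 (ENSMUSG00000060036, GRCm39 chr15:79961825-79976069) had 3889, 2071, 3793, 3308, 4784 and 3781 in control TAC hearts, against 2811, 2803, 2543, 2479, 2159 and 2371 in control Sham hearts. Replicate 2 of the TAC group was the exception, below all Sham hearts, and the log2 fold change was 0.47 (SE 0.16, adjusted p = 0.059). Rpl3l (ENSMUSG00000002500, GRCm39 chr17:24946751-24955119) had 3246, 5972, 3957, 4238, 1511 and 2842 in control TAC hearts, against 6161, 8688, 7530, 6225, 5709 and 6877 in control Sham hearts. It fell by 1.02 on the log2 scale (SE 0.22, adjusted p = 0.0025), and replicate 2 was again the TAC heart nearest to the Sham hearts. Without control TAC replicate 5 the fall of Rpl3l was 0.79, and Rpl3 was at 0.38 and no longer called (adjusted p = 0.17). The call of Rpl3 was kept in 21 of 28 alternatives and also lost with animal series as a covariate (0.37, adjusted p = 0.14). Rpl22l1 (ENSMUSG00000039221, GRCm39 chr3:28859585-28861573) had 390, 302, 464, 415, 440 and 326 in control TAC hearts and 500, 584, 538, 524, 511 and 510 in control Sham hearts. It was the one member of the 80 whose TAC hearts all lay below all Sham hearts, which held for 2.79% of all genes (log2 fold change −0.45, SE 0.14, adjusted p = 0.030).

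In cSirt5-/- hearts no member was called between TAC and Sham by limma, against 1.29% of all genes, and none reached an unadjusted p under 0.05, against 11.4% of all genes; edgeR and DESeq2 also called 0. The median log2 fold change was 0.05, with 54 of 80 genes above 0. Without the libraries labelled replicates 2 and 4 it was −0.13. In that fit 17 genes (21.2%) had an unadjusted p under 0.05, against 11.8% of all genes. Rplp0 was the highest at 0.44 (SE 0.23, adjusted p = 0.48) and Rpl3l the lowest at −0.36 (adjusted p = 0.54), followed by Rps27 at −0.29 and Rpl17 at −0.28. Without replicate 4 alone, Rpl17 and Rps27 were called lower, at −0.45 (adjusted p = 0.056) and −0.47 (adjusted p = 0.054), and without both doubtful libraries neither was (−0.41 and −0.44, adjusted p = 0.13 and 0.12). Rpl22l1 differed by 0.18 in this genotype. Rpl3l had 3729, 5746, 5457, 7115, 2723 and 5796 in cSirt5-/- TAC hearts, against 6636, 6399, 5632, 5410, 6556 and 7016 in cSirt5-/- Sham hearts, which overlap. The fits of the 2 genotypes were also set against each other by the interaction term. No member passed by limma, against 0.0949% of all genes, and 3 (3.75%) had an unadjusted p under 0.05, against 9.81% of all genes. The median interaction was 0.12. Without both doubtful libraries it was −0.06, and 2 genes (2.5%) had an unadjusted p under 0.05, against 9.9% of all genes. DESeq2 called 1, Rpl22l1 (adjusted p = 0.081), and edgeR none. The interaction was largest for Rpl3l (0.66, adjusted p = 0.49) and Rpl22l1 (0.63, adjusted p = 0.22).

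The balance of the 2 paralogs was summarised as the log2 ratio of Rpl3l to Rpl3 in each heart. It averaged 0.11 ± 0.53 in cSirt5-/- TAC hearts, 0.73 ± 0.28 in cSirt5-/- Sham hearts, −0.06 ± 1.04 in control TAC hearts and 1.43 ± 0.18 in control Sham hearts (SD, n = 6 each). Rpl3l thus stood above Rpl3 in every control Sham heart, and near or below it in several TAC hearts. TAC minus Sham was −1.498 in control hearts (two-sided exact permutation test, p = 0.0087, adjusted over 4 comparisons 0.017) and −0.62 in cSirt5-/- hearts (exact p = 0.017, adjusted 0.023). The ratio also differed by −0.71 between cSirt5-/- and control Sham hearts (exact p = 0.0043, adjusted 0.017), and did not differ detectably between genotypes after TAC (0.17, exact p = 0.73, adjusted 0.73). Without both doubtful libraries, TAC minus Sham in cSirt5-/- hearts was −0.70 (exact p = 0.019, adjusted 0.025) and the genotype difference after TAC 0.09 (exact p = 0.88, adjusted 0.88). Of the Sham difference, Rpl3 contributed 0.59 (adjusted p = 0.059) and Rpl3l −0.12 (adjusted p = 0.83) as log2 fold changes. With animal series as a covariate in limma, Rpl3 was at 0.23 (adjusted p = 0.75) and Rpl3l at 0.28 (adjusted p = 0.81). The ratio was not tested with that covariate, and series 3 gave 4 cSirt5-/- Sham hearts and 0 control Sham hearts. The ratio of Rpl22l1 to Rpl22, log2 −2.47, −2.62, −3.14 and −2.65 in cSirt5-/- TAC, cSirt5-/- Sham, control TAC and control Sham hearts, was lowest in control TAC hearts.

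**Figure D3:**
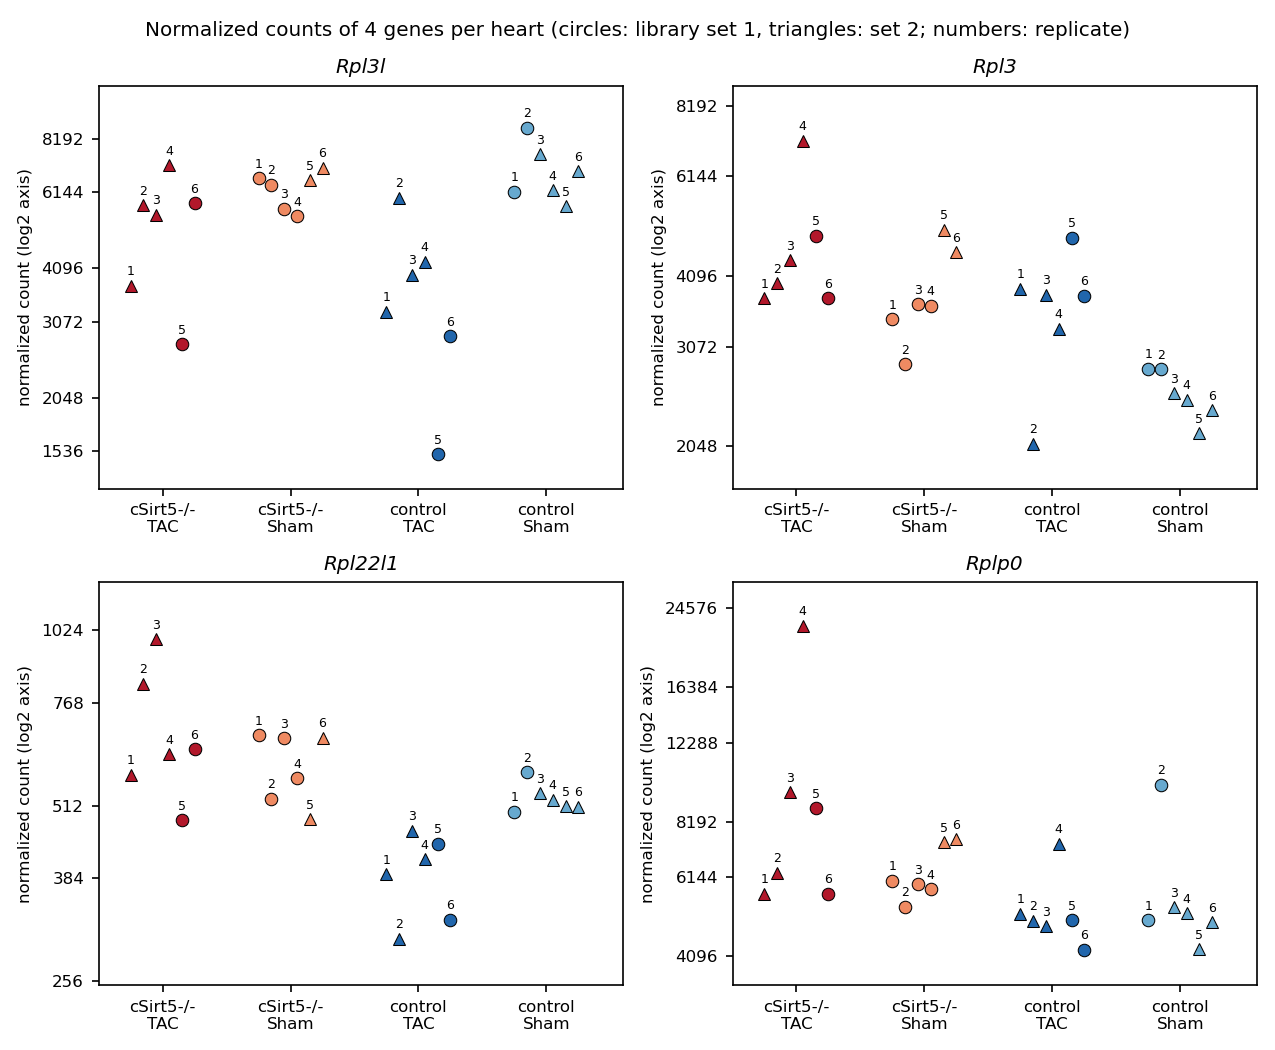
Normalized counts of Rpl3l, Rpl3, Rpl22l1 and Rplp0 in each heart on a log2 axis, with circles for library set 1, triangles for set 2 and replicate numbers beside the points. Control TAC hearts are the lowest for Rpl22l1 (302 to 464), and Rplp0 reaches 22447 in the library labelled cSirt5-/- TAC replicate 4.

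Most of the genes moved together from heart to heart. After subtraction of each heart's median over the 80 genes, the standard deviation of a gene over hearts, within groups, had a median of 0.14 on the log2 scale, against 0.27 before it, and 65 genes stayed under 0.2. The medians were 0.12 and 0.19 without both doubtful libraries. Genes that kept much of their own variation were Rpl13a and Rpl3l (0.41 each), Rpl31 (0.40), Rpl22l1 (0.31) and Rplp0 (0.30). Rpl13a was near the level cut, and 59.3% of its canonical exons are shared with an overlapping gene model, so its counts are uncertain. In cSirt5-/- TAC replicate 3, whose mean level was 11.72, 8 of the 80 genes had their lowest value of all 24 hearts and 2 had their highest. Among the 8 were Rpl31 with 866, Rpl27 with 708 and Rpl17 with 2150. In the same heart Rps12 had 5153 and Rpl39 1662, above all control hearts.

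**Figure D4:**
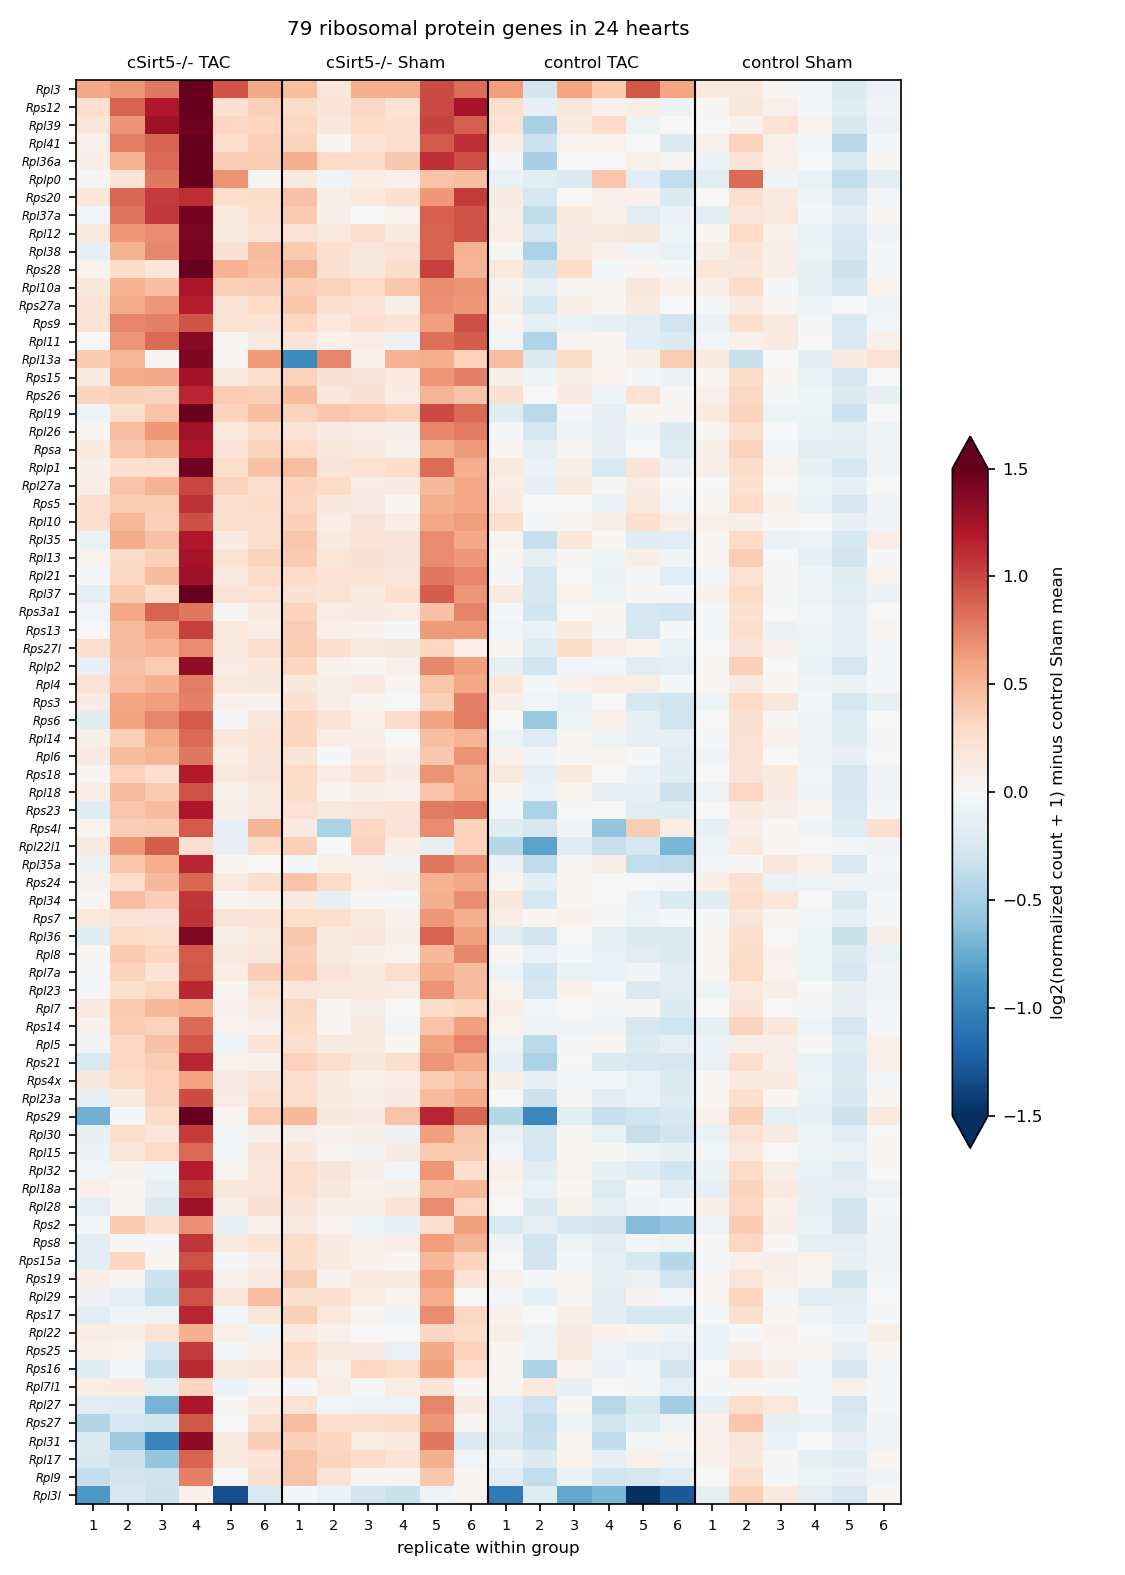
Log2(normalized count + 1) of each ribosomal protein gene minus its mean in control Sham hearts, for 79 of the 80 genes (rows, ordered by the cSirt5-/- TAC mean) and 24 hearts (columns, by group and replicate). Colours saturate at −1.5 and 1.5. The column of replicate 4 in the cSirt5-/- TAC group is the darkest, Rpl3l is low in most TAC hearts, and Rpl31 and Rpl27 are blue in replicate 3 beside red rows.

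Short genes other than ribosomal protein genes also differed between genotypes. Among protein-coding genes outside the set, the median log2 fold change of cSirt5-/- over control hearts after TAC was 0.29 for coding lengths under 300 bases (159 genes), 0.19 for lengths of 300 to under 600 (1076 genes) and −0.32 for those of at least 4800 bases (564 genes). The classes of intermediate length lay in between, and after Sham the medians ran from 0.11 to −0.11 across the same classes. The ribosomal protein genes are short, with a median coding length of 462 bases and 54 of 80 under 600. At matched length they were higher than the other genes, at 0.51 (9 genes), 0.41 (45 genes) and 0.43 (23 genes) in the classes under 300, 300 to under 600 and 600 to under 1200 bases after TAC. The last class of other genes had 0.08. Without replicate 4 the ribosomal protein medians were 0.34, 0.27 and 0.30, against 0.20, 0.13 and 0.06 in the other genes. With both doubtful libraries left out they were 0.29, 0.26 and 0.27, against 0.19, 0.12 and 0.06. When the mean log2 level of 1235 short genes outside the set was added to the model as a covariate, 1 ribosomal protein gene (Rpl22l1) was called after TAC and the median was −0.04. That covariate itself differed by 0.21 between genotypes after TAC, so it removes part of any difference shared by short genes, and the part of coding length in the result was not tested beyond these values.

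**Figure D5:**
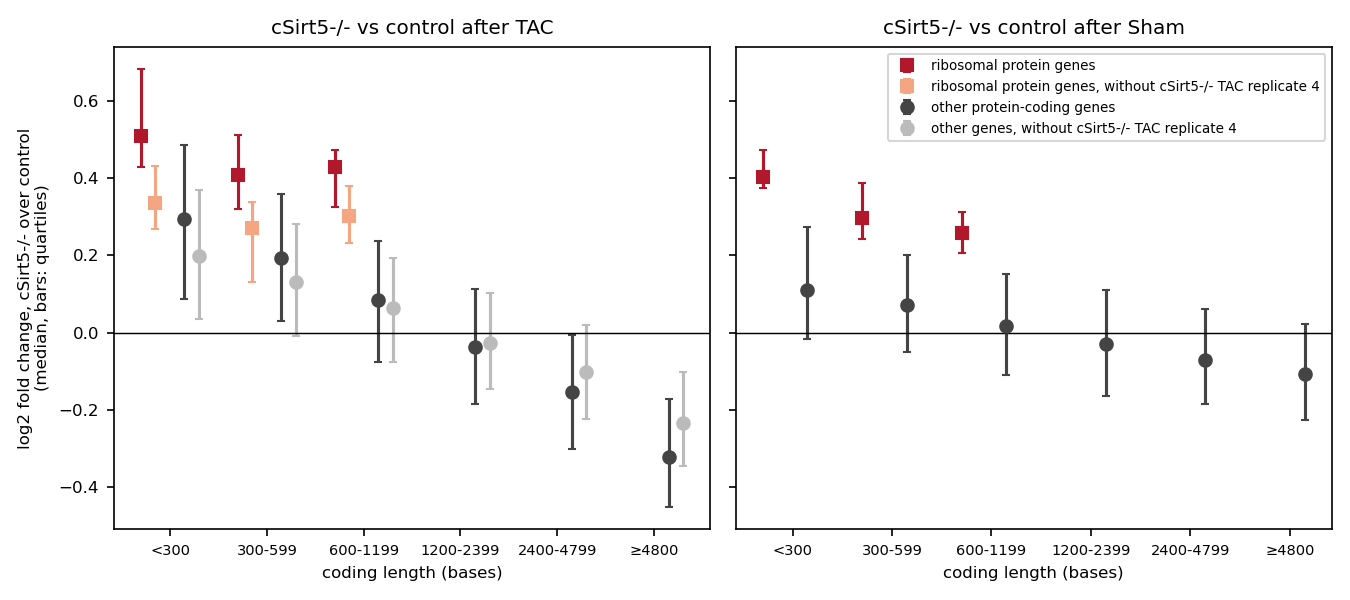
Median log2 fold change of cSirt5-/- over control hearts by coding length, for ribosomal protein genes (red squares) and other protein-coding genes (grey circles), with quartiles as bars, after TAC (left, also without replicate 4) and after Sham (right). Ribosomal protein medians lie between 0.41 and 0.51 after TAC, above the other genes at each matched length, whose medians decrease from 0.29 to −0.32 with length.

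Other parts of the translation machinery were described from 7 fixed lists. Of 21 translation factors and partners whose mRNAs carry TOP motifs, 9 rose and none fell in cSirt5-/- over control hearts after TAC (median 0.19), beside 4.97% of all genes called higher and 5.06% lower. Without both doubtful libraries none of the 21 was called (median 0.13). The elongation factor subunits Eef1b2 (0.45, adjusted p = 0.029) and Eef1d (0.44, adjusted p = 0.049), and Rack1, a scaffold protein on the small subunit (0.32, adjusted p = 0.053), were among them. Eef1a1, the elongation factor that delivers tRNA, rose by 0.47 in cSirt5-/- over control hearts of the Sham groups (adjusted p = 0.063), and TAC raised it by 0.40 in control hearts (adjusted p = 0.051).

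Of 18 genes listed for mTORC1 and its control of TOP mRNAs, 7 fell in cSirt5-/- relative to control hearts after TAC and 1 rose, beside 5.06% of all genes called lower and 4.97% higher. The median of the list was −0.06. Without both doubtful libraries 4 of the 18 were called lower (Mtor, Tsc1, Larp1 and Eif4ebp2) and none higher, beside 1.46% and 1.27% of all genes. Mtor, the kinase itself, had 2059 ± 310 in cSirt5-/- TAC hearts and 2799 ± 263 in control TAC hearts (log2 fold change −0.45, adjusted p = 0.0062). Tsc1 (−0.45, adjusted p = 0.0036), which restrains mTORC1, fell together with Larp1 (−0.29, adjusted p = 0.011), which binds TOP mRNAs, Rps6kb1 (−0.31), the kinase of ribosomal protein S6, Eif4ebp2 (−0.28), Rptor (−0.22) and Tsc2 (−0.20), while Rheb, its activator, rose (0.29). In control hearts, Mtor rose after TAC (0.34, adjusted p = 0.021), as did Larp1 (0.19, adjusted p = 0.069), Mxd4 and Myc, a transcription factor that drives ribosome production (1.05, adjusted p = 0.0098). The 7 genes that fell had coding lengths of 360 bases (Eif4ebp2) to 7647 bases (Mtor), and the part of length in their values was not tested.

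Genes for making ribosomes were compared in the same way, against the same 4.97% higher and 5.06% lower among all genes. After TAC, 2 of 50 nucleolar ribosome biogenesis factors rose (Nhp2 0.40 and Rrp1 0.31) and 2 fell (Tsr1 −0.29 and Ddx21 −0.23) in cSirt5-/- hearts, with a median of 0.03. RNA polymerase I genes ranged from −0.20 to 0.33 (14 genes, median 0.06) with no call, and 1 of 26 initiation factors rose (Eif3m 0.36) and 1 fell (Eif2s3x −0.37). Of 13 RNAs that host small nucleolar RNAs, Zfas1 rose (0.52, adjusted p = 0.053), and all 13 were above 0 with a median of 0.35, although 12 did not pass. Among 18 chaperones and quality-control genes, Ascc3 (−0.52) and Huwe1 (−0.42) fell. The part of coding length in the values of these lists was not tested. Without both doubtful libraries no gene of these 5 lists was called between genotypes after TAC, and the snoRNA hosts had 12 of 13 above 0 with a median of 0.22. TAC in control hearts raised 6 of the 50 nucleolar factors and lowered 1, where 13.9% of all genes were called in either direction. Rrp12, which in yeast takes part in the export of ribosomal subunits from the nucleus, rose most (1.02, SE 0.13, adjusted p = 7.1e-06), and it also rose after TAC in cSirt5-/- hearts (0.55, adjusted p = 0.049), a call lost without both doubtful libraries (0.44, adjusted p = 0.17).

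Cell type markers that moved beside these results were read from 9 lists. After TAC, 2 of 6 macrophage markers were called higher in cSirt5-/- than in control hearts (C1qa and Cd68), with summed normalized counts of 5998 to 8255 in cSirt5-/- TAC hearts and 3567 to 7256 in control TAC hearts. Endothelial markers had 2 of 6 called lower (Cdh5 and Kdr), with sums of 16004 to 26643 against 20798 to 27896, and smooth muscle markers had 1 higher and 2 lower of 5. The 6 cardiomyocyte markers ranged from −0.28 to 0.45 after TAC, with no call. Without both doubtful libraries no macrophage marker was called after TAC (sums of 7204 to 8255), and Kdr among endothelial and Pdgfrb among smooth muscle markers were lower. After Sham, 2 of 6 macrophage markers were higher (sums of 4922 to 7970 against 3500 to 5469), as were 1 of 4 atrial markers (Nppa), 1 of 4 adipocyte markers and 1 of 6 lymphocyte markers, while Ryr2 among cardiomyocyte and Kdr among endothelial markers were lower. Atrial sums were 8429 to 52035 in cSirt5-/- Sham hearts, against 1605 to 18439 in control Sham hearts. All 4 atrial markers were above 0 after Sham, with log2 fold changes of 2.10 to 4.45 and a median of 3.77. The 4 adipocyte markers were also all above 0 (median 2.46), as were 4 of the 6 lymphocyte markers (median 0.51). Both lists had low counts. Adipocyte sums were 9.01 to 179 in cSirt5-/- Sham hearts and 0 to 20.1 in control Sham hearts. Lymphocyte sums were 290 to 531 and 191 to 410. One adipocyte marker was at 0 in every cSirt5-/- TAC heart. The cardiomyocyte markers were abundant in all groups, with no marker at 0 in all hearts of a group. The part of these cell types in the ribosomal protein differences was not tested.

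The genes most like the set were ranked by Pearson correlation with the mean level of the 80 genes, within groups over 24 hearts, among 10854 other genes. They share libraries and normalization, so the ranking is a description. The highest were D8Ertd738e and Atp5k (0.950 each), Uqcr10 (0.939), Rack1 and Fcf1 (0.936 each), Tpt1 (0.930), Uqcc2 (0.929), Ndufs5 (0.927), Atp5o and Vamp8 (0.925 each). Uqcr10, Ndufs5, Atp5k and Atp5o encode subunits of mitochondrial complexes, and Tpt1 and Rack1 have TOP mRNAs. All 10 have coding lengths of 192 to 951 bases. Over the 22 hearts without both doubtful libraries their correlations were 0.815 to 0.910, and 5 of them were among the first 10.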

How the data were processed

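RNA of whole hearts was prepared with a directional kit and sequenced as read pairs. According to the labels and methods, the authors trimmed reads with Trim Galore and aligned them to GRCm39 (mm39) with STAR. The counter and the annotation are not given in the sources used here. The deposited table holds normalized counts (a signal per gene), which the authors made by dividing counts by DESeq2 size factors. The table also holds the authors' own fold changes and p-values for TAC against Sham in each genotype, which were not used. The deposited values came out as whole reads for 100% of 581736 values within a tolerance of 1e-06, so the count test could be run on recovered reads as an added alternative. The quasi-likelihood test of edgeR called 59 and DESeq2 63 of the 80 genes between genotypes after TAC. Both fits include the doubtful libraries. The share of all genes that each tool called, and its counts without those libraries, are not given.

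The main test was limma (version 3.58.1) with a mean-variance trend on log2(normalized count + 1), 1 model of 24 libraries with a term per group, Benjamini-Hochberg over 24239 genes. No filter was used. The pseudocount understates changes of low genes. Ratios of paralogs were tested by exact permutation over 924 labelings. R 4.3.3, edgeR 4.0.16, DESeq2 1.42.0 and Python 3.11.15 were used, and the limma test was checked on simulated counts. Genes were placed with GENCODE on GRCm39, which held 24037 of the gene IDs. No strand setting of the counting is stated, so overlapping and antisense genes are uncertain. Reads of 176 ribosomal pseudogene rows summed to 0.533% of the members' sum.

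Named genes were the 3 highest and lowest in each comparison, those called with over 1.5-fold, the paralog pairs, the stalk genes, Rpsa and Rps16; Rpl31 and Rpl27 in replicate 3 and members of no-overlap counts were named after their values were seen. Some named items are not reported here. The members, the lists and the tests were chosen with earlier results of these data known. Same-numbered replicates did not deviate together (10 of 36 pairs had r over 0.1), so the main fit has no replicate block. No 2 libraries agreed within sampling noise among 276 pairs. Alternatives covered tools, scaling, filters, pseudocounts, library sets, animal series, the replicate block and each library left out. Leaving out both doubtful libraries for the gene lists, length classes, start runs, spread and likeness was added after seeing the data.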

Additional observations from a re-analysis of the deposited data

Results flagged for a closer look

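In groups of 6 hearts, a heart that stood far from the other 5 was looked for in 128 group and value combinations, and 18 were found, where chance gives about 5%. The library labelled cSirt5-/- TAC replicate 4, whose Sirt5 goes against its label, accounted for 12 of them.

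That library had a mean log2 level of 12.49 over the 80 genes, against 11.40 to 11.73 in the other cSirt5-/- TAC hearts. It had 22447 for Rplp0 (others 5646 to 9519), 15970 for Rpsa, 15354 for Rplp1, 8736 for Rplp2, 7400 for Rpl10, 7097 for Rpl3, 5068 for Rps29, 4613 for Rps16, 3534 for Rpl19, 2356 for Rpl36a and 222 for Rpl13a.

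The remaining 6 were in other libraries. The share of counted reads in the 80 genes was 1.49% in cSirt5-/- Sham replicate 6 (others 1.06 to 1.22%) and 0.605% in control TAC replicate 2 (others 0.926 to 1.07%), whose ribosomal RNA and 7SK took 23.4% of reads. Rpl36a was 520 in control TAC replicate 2, below 725 to 774 in the others of its group. Rplp0 was 7307 in control TAC replicate 4 (others 4236 to 5101) and 9899 in control Sham replicate 2 (others 4245 to 5270). Rpl7 was 8051 in control Sham replicate 2 (others 6534 to 7047).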

How the results depend on the processing

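The median log2 fold change of the 80 genes kept its sign between genotypes under 31 of 32 alternatives after TAC and under all 32 after Sham. The exception after TAC was a covariate for the level of short genes outside the set, chosen after seeing the data (−0.0389, 1 gene called); it turned Rpl10 to −0.0394, Rpl11 to −0.0365, Rpl37a to −0.0326, Rpl41 to −0.0200, Rplp0 to −0.0681, Rplp1 to −0.0651, Rplp2 to −0.0962 and Rps29 to −0.104. The counts moved more, and are given here without the share of all genes called. After TAC, 53 became 14 with a 1.5-fold limit, 13 with animal series as a covariate, 8 from the 2 groups alone, 3 without the libraries whose Sirt5 goes against the label, 0 in set 1, and 26 to 61 with single libraries left out (26 without cSirt5-/- TAC replicate 4, which also lowered the median to 0.29). After Sham, 4 became 2 (1.5-fold), 18 (DESeq2), 2 (TMM), 13 (quantile), 10 (genes with a mean of at least 10), 16 (library set as covariate), 0 (animal series), 0 (set 1), 39 (set 2, median 0.63), 26 (2 groups), 36 (without the doubtful Sirt5 libraries), 1 (short-gene covariate), and 0 to 10 with single libraries left out. In control hearts, TAC gave 1 (1.5-fold, canonical genes, or set 2), 6 (2 groups) and 5 (short-gene covariate) in place of 3, and in cSirt5-/- hearts 1 with animal series and 0 to 2 with single libraries left out. The interaction gave 1 by DESeq2, 0 to 1 with single libraries left out, and a median of −0.14 in set 2. Differences in share of reads after Sham were 0.0626 and 0.475 percentage points in sets 1 and 2, against 0.257, with level differences of 0.0620 and 0.630, and after TAC the share differed by 0.162 in set 1. The Rpl3l to Rpl3 ratio lost its calls within sets, where few hearts remain: −2.42 and −1.04 for TAC in control hearts, −0.92 and −0.31 for TAC in cSirt5-/- hearts and −0.55 and −0.94 between genotypes after Sham. Between genotypes after TAC it was −0.21 in set 2 and −0.15 to 0.49 with single libraries left out. Except where construction shows it (fewer hearts or a stricter limit), the cause was not tested. The replicate block gave 3, 0, 3, 48 and 0 calls for TAC in control, TAC in cSirt5-/-, genotype after Sham, genotype after TAC and the interaction; 7 of 24 libraries correlated best with their own number. Of 728 alternatives for 26 named gene results, 563 kept their call, 157 lost it and 8 reversed.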
